A study of Homo sapiens with 62 samples.

Results

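The genes of 10 plasma membrane amino acid transporters were examined in 5 human cell lines: SLC38A1, SLC38A2, SLC7A11, SLC7A5, SLC3A2, SLC1A5, SLC7A1, SLC7A8, SLC1A4 and SLC43A1. They were picked by name because SLC38A1 was nearly lost in A2058 melanoma clones without the 7p gain, so the values of that contrast chose the genes. All 10 were found once in each of the 62 count tables, among 45342 gene identifiers that the tables share (58735 genes in each table with GRCh38 coordinates and 48162 in each with GRCh37 coordinates). A count here is the number of sequenced fragments or reads given to a gene in 1 library.

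The libraries are messenger RNA of cells plated 24 hours before extraction. A2058 (melanoma, gains of 1q, 7p and 8q) gave 4 parental wildtype (WT) libraries, 4 of 1q-loss (2 clones), 6 of 7p-loss (3 clones) and 4 of 8q-loss (2 clones). Per the labels, a single arm was targeted in each of these clones. HCT116 (colorectal cancer, gain of 8q) gave 2 WT and 4 8q-loss libraries (2 clones). AGS (gastric cancer, gain of 1q) gave 1 WT library, 2 of cells that carry a TK integrant and keep the gain (TK+), and 5 1q-loss clones with 1 library each. A2780 (ovarian cancer, gain of 1q) gave 2 WT, 2 TK+ and 6 1q-loss libraries (clones 2, 5 and 6). MCF10A (breast epithelial, an extra copy of 1q) gave 2 WT and 8 1q-loss libraries (4 clones), and the same line expressing hRASV12 (hRas) gave 2 WT and 8 1q-loss libraries (4 clones). Loss clones were grown from single cells after ReDACT, a set of chromosome engineering methods that the labels name NS, TR and CO, so each clone carries its own history as well as the loss. All A2058 and HCT116 clones are labelled CO and all A2780 clones NS. In AGS clones 1, 4, 6 and 7 are NS and clone 11 is CO, and in MCF10A, with and without hRas, clones 1, 2 and 3 are TR and clone 4 is CO, so 2 methods are mixed in each of these groups. Libraries of 1 clone are not independent of each other, and p-values measure the spread between these libraries.

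Amino acid transporters of the cell surface include sodium-driven carriers that load the cell with neutral amino acids such as glutamine, exchangers that trade 1 amino acid for another, and carriers that let amino acids pass down their gradient. SLC38A1 and SLC38A2 are sodium-coupled carriers of small neutral amino acids, SLC1A5 and SLC1A4 exchange neutral amino acids, and SLC7A5, SLC7A8 and SLC7A11 are light chains that need the heavy chain SLC3A2 to reach the membrane. Several of these genes are known targets of ATF4, the transcription factor that raises amino acid supply when amino acids run short.

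None of the 10 genes lies on a targeted arm. In GRCh38 SLC38A1 spans chr12:46183063-46270017 on the minus strand, and SLC38A2 lies 88.2 kb away at chr12:46358189-46372867 on the same strand. SLC7A5 is at chr16:87830023-87869488, SLC3A2 at chr11:62856102-62888875, SLC7A8 at chr14:23125295-23183674 and SLC43A1 at chr11:57484534-57515786. SLC1A5 is at chr19:46774883-46788594 and SLC1A4 at chr2:64988477-65023865. SLC7A11 is at chr4:138164097-138242349 and SLC7A1 at chr13:29509410-29595688. Whether counting used the strand is not given in the sources used here, so reads of a gene and of any gene that overlaps it on the other strand cannot be told apart.

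The sequence before 2 RefSeq starts of SLC38A1 and upstream of its neighbour SLC38A2 is shown because one gene of this pair was nearly absent in 4 A2058 clones and the other was not. Both genes are on the minus strand of chromosome 12 (GRCh38.p14, from RefSeq), each run reads 5′ to 3′ along the gene, and CG pairs are in capitals. The SLC38A1 runs end next to their RefSeq starts, and the SLC38A2 run ends next to the annotated gene end given above, upstream of its RefSeq start.
SLC38A1, chr12:46267988-46268237: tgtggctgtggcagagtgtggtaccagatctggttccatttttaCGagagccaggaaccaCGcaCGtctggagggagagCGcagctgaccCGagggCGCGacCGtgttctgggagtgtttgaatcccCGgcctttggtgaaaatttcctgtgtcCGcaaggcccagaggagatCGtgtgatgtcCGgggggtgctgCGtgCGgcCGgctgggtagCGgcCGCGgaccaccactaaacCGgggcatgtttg
SLC38A1, chr12:46266517-46266766: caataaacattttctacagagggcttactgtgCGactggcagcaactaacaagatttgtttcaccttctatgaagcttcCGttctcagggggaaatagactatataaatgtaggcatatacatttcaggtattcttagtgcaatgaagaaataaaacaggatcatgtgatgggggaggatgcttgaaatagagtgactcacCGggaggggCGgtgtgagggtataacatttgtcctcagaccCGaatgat
SLC38A2, chr12:46372868-46373023: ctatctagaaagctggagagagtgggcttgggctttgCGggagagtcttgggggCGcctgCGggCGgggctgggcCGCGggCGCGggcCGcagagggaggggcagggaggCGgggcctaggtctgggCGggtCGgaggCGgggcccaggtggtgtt
The first SLC38A1 run holds 19 CG pairs in 250 bases (61.6% G and C), the other 5 in 250 bases (42.4%), and the SLC38A2 run 13 in 156 bases (73.7%), while the median over all RefSeq windows is 11 in 250 bases. Methylation was not measured in these samples, and the annotated SLC38A1 gene reaches upstream of both windows.

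RefSeq windows from 250 bases before to 50 after a start were matched for 9 of the 10 genes (19 windows). The letters TGATGNAA on either strand, a form of the element that ATF4 and its C/EBP partners bind, occurred in 5 of these 19 windows and in 3.62% of all 35116 windows. The sites, 30 bases each and read along the gene with the match in capitals (the reverse complement in SLC1A4 and SLC3A2), are these.
SLC38A1, chr12:46266502-46266531: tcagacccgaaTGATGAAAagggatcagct
SLC7A1, chr13:29595663-29595692: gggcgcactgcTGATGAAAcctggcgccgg
SLC1A5, chr19:46784893-46784922: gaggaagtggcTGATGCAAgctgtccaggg
SLC1A4, chr2:64989381-64989410: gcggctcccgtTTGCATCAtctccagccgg
SLC3A2, chr11:62881719-62881748: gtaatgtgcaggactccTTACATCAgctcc
The E-box letters CACGTG occurred in 4 of the 19 windows, those of SLC7A5, SLC1A5, SLC7A8 and SLC43A1, and in 7.26% of all windows. A match describes the letters of a window and shows no binding.

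Levels are given as CPM (edgeR's library-scaled counts, with TMM factors set within a line), and levels of different genes or lines are compared only as CPM per kilobase of the counted gene. Lines were scaled separately and A2780 was counted on other gene models, so levels across lines are descriptions with no test. Per kilobase, SLC7A5 was the highest of the 10 genes in A2058 WT (506 ± 26.6, SD, n = 4), in HCT116 WT (200 ± 68.0, SD, n = 2, with libraries at 152 and 248) and in MCF10A WT (787 ± 83.5, SD, n = 2). In A2780 WT, SLC1A5 at 145 to 155 and SLC7A5 at 142 to 156 CPM per kilobase did not differ beyond their spread. AGS WT, a single library, had SLC7A5 at 313 and SLC1A5 at 291. The heavy chain SLC3A2 was among the 3 highest in every parental line.

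SLC38A1 was low in 2 lines and high in 3. It stood at 5.01 ± 0.882 CPM per kilobase in A2058 WT (SD, n = 4) and at 4.87 ± 2.11 in HCT116 WT (SD, n = 2), 2 lines whose libraries overlapped. In AGS WT it was 49.4, in A2780 WT 52.1 ± 1.17, and in MCF10A WT 58.1 ± 2.05 (SD, n = 2 each for the last 2 lines). A2780 at 51.2 to 52.9 and the 1 AGS WT library at 49.4 lay close together, and MCF10A at 56.7 to 59.6 lay above both. The cystine carrier SLC7A11 had another order, with 12.8 ± 0.739 CPM per kilobase in A2058 WT, 14.1 in AGS WT, 7.01 ± 1.23 in MCF10A WT, 0.690 ± 0.108 in A2780 WT and 0.377 ± 0.161 in HCT116 WT.

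**Figure D1:**
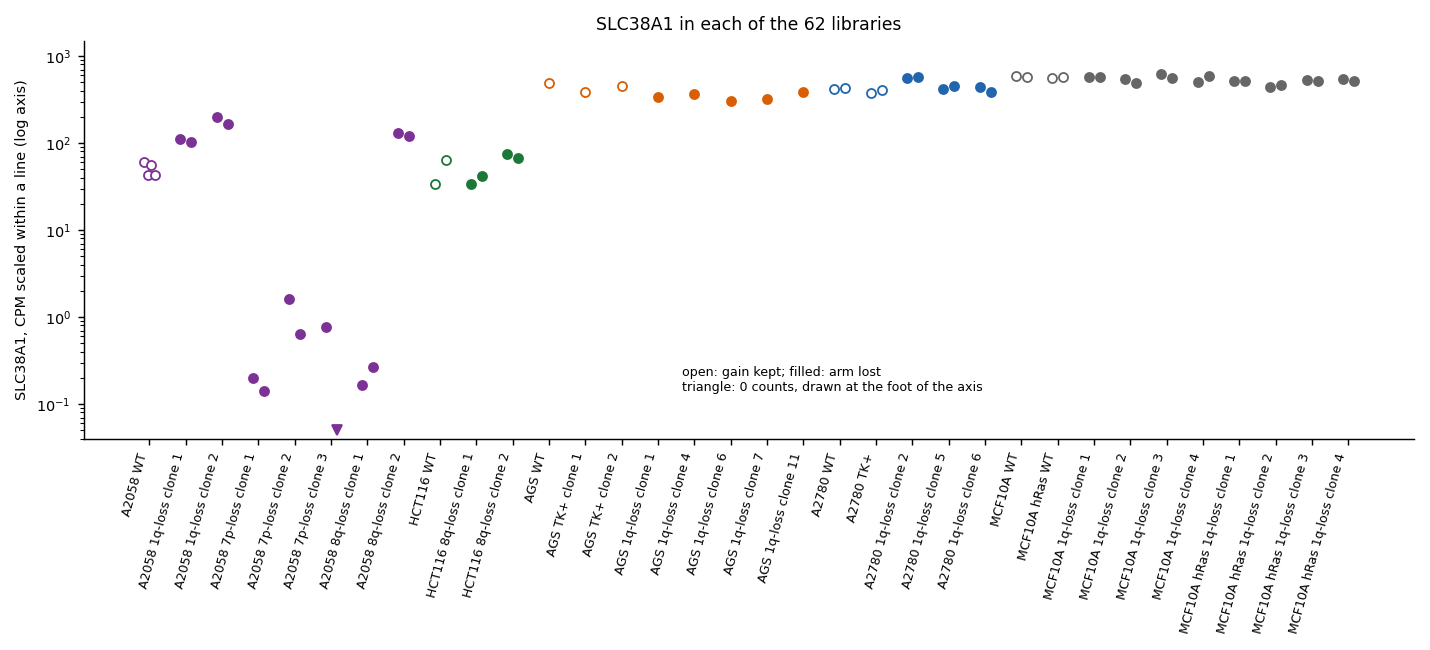
SLC38A1 in each of the 62 libraries, in CPM scaled within a line on a log axis; open points keep the gain, filled points lost an arm, and the triangle is a library with 0 counts. The 6 A2058 7p-loss libraries and the 2 libraries of A2058 8q-loss clone 1 lie below 2 CPM, while all other libraries lie above 30 CPM.

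In A2058 the level of SLC38A1 differed widely between clones. The 4 WT libraries had 42.7, 42.8, 55.2 and 60.03 CPM. The 7p-loss libraries had 0.198 and 0.143 CPM in clone 1, 1.63 and 0.632 in clone 2, and 0.773 and 0 in clone 3. These levels rest on 0 to 37 counts, against 988 to 1300 counts in WT, and the library with 0 counts allows up to 3 counts, or 0.133 CPM, by counting error alone. The clone means lay 295-fold, 44.3-fold and 130-fold below the WT mean of 50.2 CPM, and the fitted log2 fold change was -6.48 (SE 0.62). This is the contrast that chose the genes, so it is given with no test.

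The 2 A2058 8q-loss clones lay on opposite sides of WT. Clone 1 had 0.166 and 0.270 CPM of SLC38A1 (4 and 6 counts), inside the range of the 7p-loss libraries, while clone 2 had 132 and 122 CPM, above every WT library. Over both clones the log2 fold change was 0.34 (SE 1.21, adjusted p = 0.939 by edgeR's quasi-likelihood test). Without clone 1 it was 1.33 (adjusted p = 0.00157) and without clone 2 it was -7.83 (adjusted p = 8.1e-06), so the group value describes neither clone. In clone 1 the untargeted 13q arm also shifted by -0.411 (log2), and the part of that shift was not tested. Both 1q-loss clones lay above WT, at 113 and 103 CPM in clone 1 and 199 and 164 in clone 2, and SLC38A1 rose by 1.53 (SE 0.21, adjusted p = 0.000151). In 1 edgeR fit over all 18 A2058 libraries the fold change was again 1.53, but it was not called (adjusted p = 0.27). All 3 A2058 contrasts use the same 4 WT libraries.

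None of the other 6 tested protein-coding genes within 1 Mb of SLC38A1 was nearly absent in the clones that lacked it. SLC38A2 averaged 240 CPM in WT and 220, 269 and 255 in 7p-loss clones 1, 2 and 3, and 207 in 8q-loss clone 1. SCAF11, a splicing-related gene, averaged 95.5 in WT and 120, 108, 102 and 99.9 in the same clones. ARID2, a chromatin remodelling subunit, averaged 34.8 in WT and 41.6 to 44.0 in those 4 clones, and ANO6, a lipid scramblase, 81.9 in WT and 88.3 to 145. AMIGO2, an adhesion molecule gene, was the lowest relative to WT, at 24.3 against 53.3 in 7p-loss clone 3 (log2 difference -1.15), but it was at 80.0 in 8q-loss clone 1. PCED1B was low throughout, at 3.23 in WT and 2.27 to 4.48 in those clones. The 12q arm as a whole moved by -0.01 to 0.02 (log2) in these 4 clones.

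**Figure D2:**
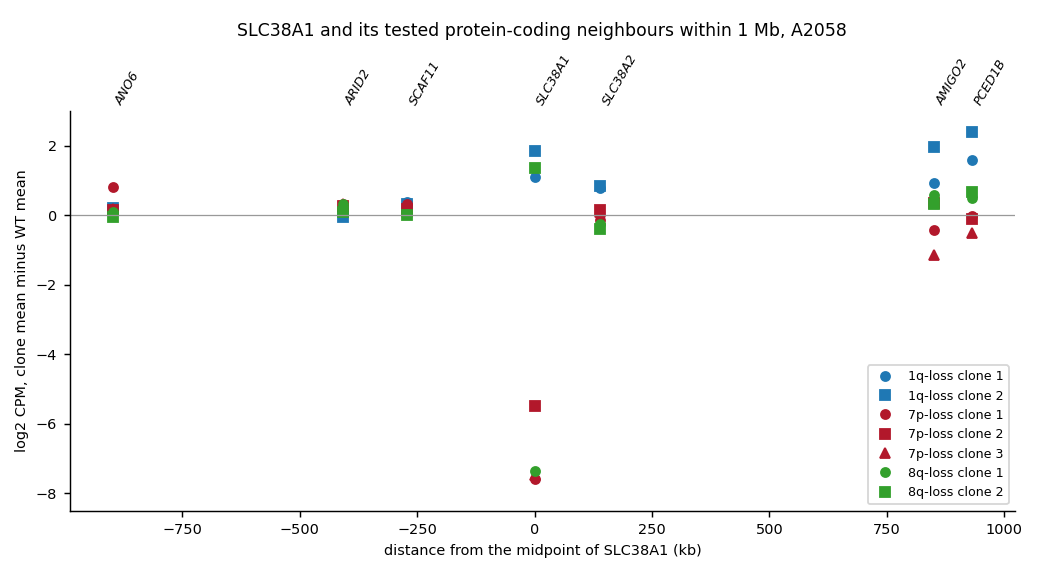
SLC38A1 and its 6 tested protein-coding neighbours in the A2058 clones; the x axis is the distance of gene midpoints in kb and the y axis the clone mean minus the WT mean in log2 CPM. SLC38A1 lies at -5.48 to -7.59 in the 3 7p-loss clones and at -7.36 in 8q-loss clone 1 (points overlap there), and no neighbour lies below -1.15.

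The gene most like SLC38A1 over the 18 A2058 libraries, among 13067 protein-coding genes outside 7p, was THY1 (Pearson r = 0.905 of log2 CPM), followed by SULT1C2 (0.896), FKBP4 (0.886), COL1A1 (0.881) and PKIA (0.876). These r values are descriptions over libraries that share clones. COL1A1, a fibrillar collagen chain, was at 15.1 to 22.2 CPM in WT, 108 to 246 in 1q-loss, 0.773 to 7.52 in 7p-loss, 2.37 to 2.61 in 8q-loss clone 1 and 17.6 to 37.4 in clone 2. FKBP4, a co-chaperone gene, was at 217 to 228 CPM in WT, 159 to 198 in 7p-loss and 158 to 164 in 8q-loss clone 1. THY1 and SULT1C2 did not pass 2.61 CPM in any A2058 library, so their r rests on few counts. No other transporter among the 10 came near: r was 0.397 for SLC38A2, 0.388 for SLC7A1 and 0.376 for SLC1A5, and -0.565 for SLC1A4, -0.531 for SLC7A8 and -0.431 for SLC7A11.

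**Figure D3:**
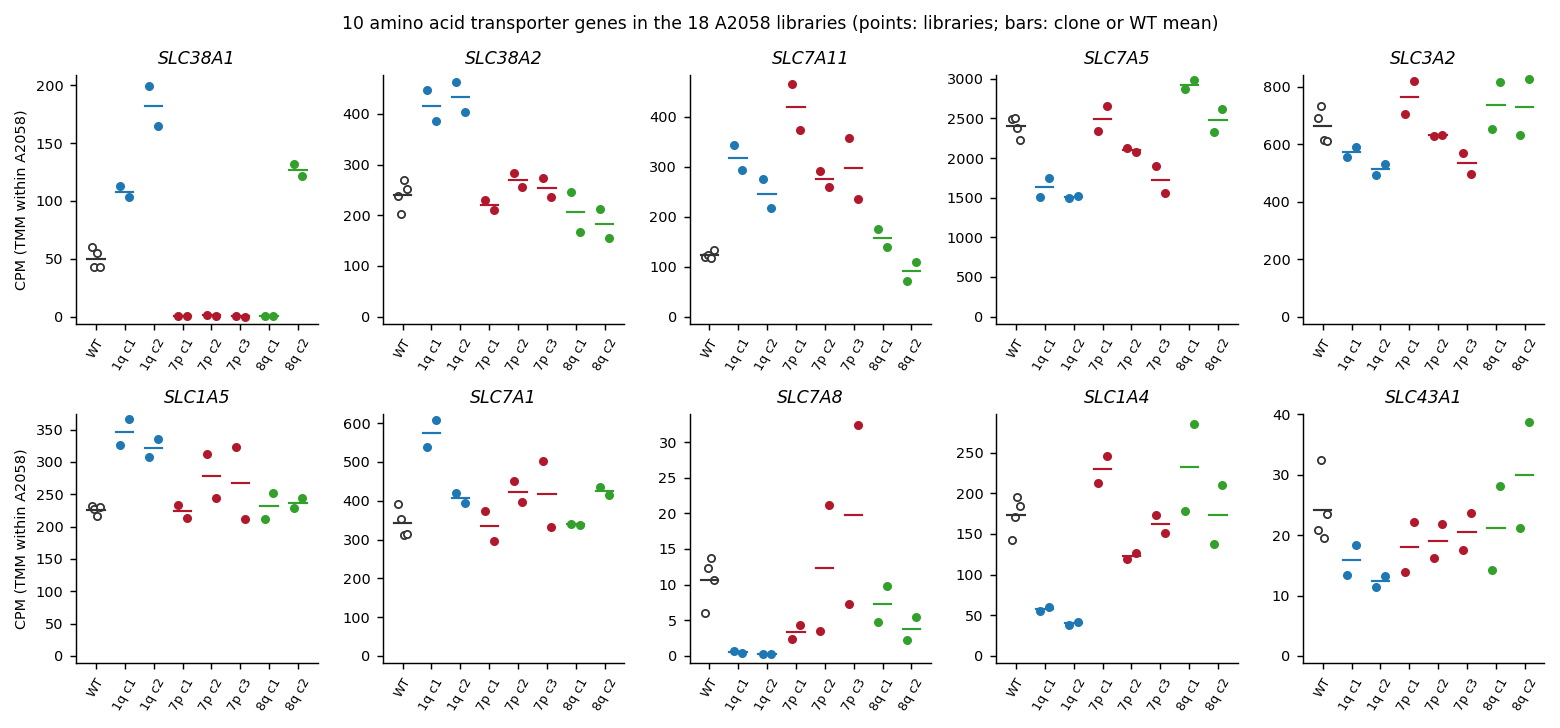
CPM of the 10 genes in the 18 A2058 libraries; points are libraries, bars are WT or clone means, and each panel has its own axis from 0. SLC7A11 is above WT in all 6 7p-loss and all 4 1q-loss libraries, and SLC1A4 and SLC7A8 are lowest in 1q-loss.

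Of the other 9 genes in the A2058 7p-loss clones, 1 lay outside the WT range in all 6 libraries. SLC7A11, the light chain that imports cystine in exchange for glutamate, was at 117, 120, 124 and 133 CPM in WT. It was at 465 and 373 in clone 1, 292 and 259 in clone 2, and 357 and 235 in clone 3, a log2 fold change of 1.42 (SE 0.18) given with no test. Over all genes tested there, 2.18% lay above and 2.74% below WT with no overlap, and 0.105% were higher and 0.804% lower at an adjusted p under 0.05. The other 8 genes overlapped WT: SLC38A2 had a log2 fold change of 0.05 (SE 0.11), SLC1A5 of 0.18 (SE 0.13), SLC7A1 of 0.20 (SE 0.14) and SLC1A4 of -0.01 (SE 0.20). SLC7A5 and SLC3A2 were at -0.18 (SE 0.12) and -0.04 (SE 0.12), SLC43A1 at -0.32 (SE 0.18), and SLC7A8 at 0.15 (SE 0.69), with 2.32 to 32.4 CPM between its libraries. In 8q-loss, SLC7A11 was at 176 and 139 CPM in clone 1 and at 72.1 and 108 in clone 2, on either side of WT.

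Among the lists of further genes, 0 of 18 other amino acid transporters, 0 of 24 amino acid response genes outside 7p and 0 of 11 glutamine enzymes were called in the 7p-loss contrast, where 0.908% of all genes were called. Their median log2 fold changes were -0.04, 0.16 and 0.01, beside 0.01 over all genes tested. The 7 melanoma markers summed to 3919 to 4803 CPM in 7p-loss clone 1, 2475 to 2689 in clone 2 and 2496 to 2858 in clone 3, against 3128 to 4170 in WT, and MLANA was below WT in all 3 clones. Clone 1 also had TYR (585 to 1061 CPM against 96.7 to 156 in WT), S100B and VIM above every WT library. Clone 2 had MITF, PMEL and TYR below, with TYR at 1.06 to 4.91 CPM, and clone 3 had PMEL and TYR below, with TYR at 0.0966 to 1.06 CPM. Among the transcription factors of this list, SOX10 was at 579 to 688 CPM in 7p-loss and 470 to 652 in WT. MITF was at 158 to 183 CPM in clone 1, 96.8 to 119 in clone 2 and 132 to 184 in clone 3, against 138 to 210 in WT. The part of these differences in the transporter values was not tested. In bulk RNA, fewer cells of a kind and less RNA per cell cannot be told apart.

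The A2058 1q-loss clones changed in all 10 genes by edgeR's quasi-likelihood test, 5 in each direction, in a contrast where 49.6% of all genes were called (25.3% higher and 24.3% lower). SLC38A1 rose as given above. SLC38A2 rose from 203 to 270 CPM in the 4 WT libraries to 446 and 386 in clone 1 and 462 and 404 in clone 2 (log2 fold change 0.82, SE 0.09, adjusted p = 4.9e-05). SLC7A11 rose to 344 and 292 CPM in clone 1 and 275 and 216 in clone 2 (1.19, SE 0.12, adjusted p = 2.0e-05). SLC1A5, the main glutamine exchanger, rose from 216 to 233 CPM in WT to 308 to 367 (0.56, SE 0.06, adjusted p = 5.0e-05). SLC7A1, which carries arginine and lysine, rose by 0.51 (SE 0.14, adjusted p = 0.00973), with 539 and 609 CPM in clone 1 but 421 and 393 in clone 2 against 311 to 393 in WT. Its call was lost without clone 1 (adjusted p = 0.073) and with WT replicates 3 and 4 only (adjusted p = 0.119), and in clone 2 the 13q arm that holds SLC7A1 lay 0.39 lower (log2).

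The other members, SLC7A8, SLC1A4, SLC7A5, SLC43A1 and SLC3A2, fell in the same clones. SLC7A8 went from 6.003, 10.7, 12.3 and 13.7 CPM in WT to 0.620 and 0.339 in clone 1 and 0.233 and 0.227 in clone 2, 5 to 13 counts per library. Its log2 fold change was -4.92 (SE 0.37, adjusted p = 2.4e-06). SLC1A4, which exchanges serine, alanine and cysteine, went from 143 to 196 CPM in WT to 55.1 and 60.5 in clone 1 and 37.7 and 42.2 in clone 2 (-1.83, SE 0.15, adjusted p = 5.4e-06). SLC7A5, the main leucine and large neutral amino acid exchanger, went from 2232 to 2502 CPM to 1498 to 1743 (-0.62, SE 0.07, adjusted p = 3.4e-05). SLC43A1, a facilitated carrier of large neutral amino acids, fell by 0.77 on the log2 scale (SE 0.19, adjusted p = 0.00568), from 19.5 to 32.4 CPM in WT to 11.5 to 18.4. The heavy chain SLC3A2 fell by 0.29 (SE 0.08, adjusted p = 0.0112), a call lost without clone 2 (adjusted p = 0.0985) and in 4 other alternatives (adjusted p from 0.0535 to 0.101).

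Of 19 other amino acid transporters tested in the A2058 1q-loss contrast, 8 rose and 7 fell, and of 26 amino acid response genes 11 rose and 6 fell, beside 25.3% of all genes higher and 24.3% lower. The lists' median log2 fold changes were -0.28 and 0.33, beside -0.00057 over all genes. SLC1A3, a glutamate carrier, had at most 2 counts in every WT library and 6.65 CPM on average in the clones, at least 48.6-fold higher than the floor of 3 counts per WT library. SLC6A9, a glycine carrier, rose by 1.79 (SE 0.15, adjusted p = 4.8e-06) and SLC7A7 by 1.03 (SE 0.31, adjusted p = 0.0197), the latter at 1.51 CPM. SLC16A10, a carrier of aromatic amino acids, fell by 4.62 (SE 0.47, adjusted p = 2.1e-05), SLC6A17 fell by 1.90 (SE 0.32, adjusted p = 0.000625), and SLC7A2, a cationic amino acid carrier, went from 167 to 58.0 CPM (-1.53, SE 0.11, adjusted p = 1.9e-06).

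Within the response list of the same contrast STC2, a secreted glycoprotein gene, went from 6.16 ± 2.25 CPM in WT to 222 ± 35.2 (SD, n = 4 each; log2 fold change 5.17, SE 0.22, adjusted p = 7.9e-08). CEBPB, a partner of ATF4, rose by 1.44 (SE 0.10, adjusted p = 1.1e-06) and CTH, which makes cysteine from cystathionine, by 1.42 (SE 0.12, adjusted p = 5.3e-06). NUPR1 fell by 2.08 (SE 0.40, adjusted p = 0.00158), VLDLR fell by 1.77 (SE 0.27, adjusted p = 0.000302) and WARS fell by 0.60 (SE 0.15, adjusted p = 0.00729). Of 10 glutamine enzymes outside 1q, GPT2 rose while GOT2 and GLUD1 fell. In these clones 6 of the 7 melanoma markers lay below every WT library and their sum was 1229 to 1498 CPM against 3128 to 4170, with SOX10 at 81.4 CPM in clone 1 and 26.5 in clone 2 against 590 in WT. The part of that difference in the transporter changes was not tested.

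**Figure D4:**
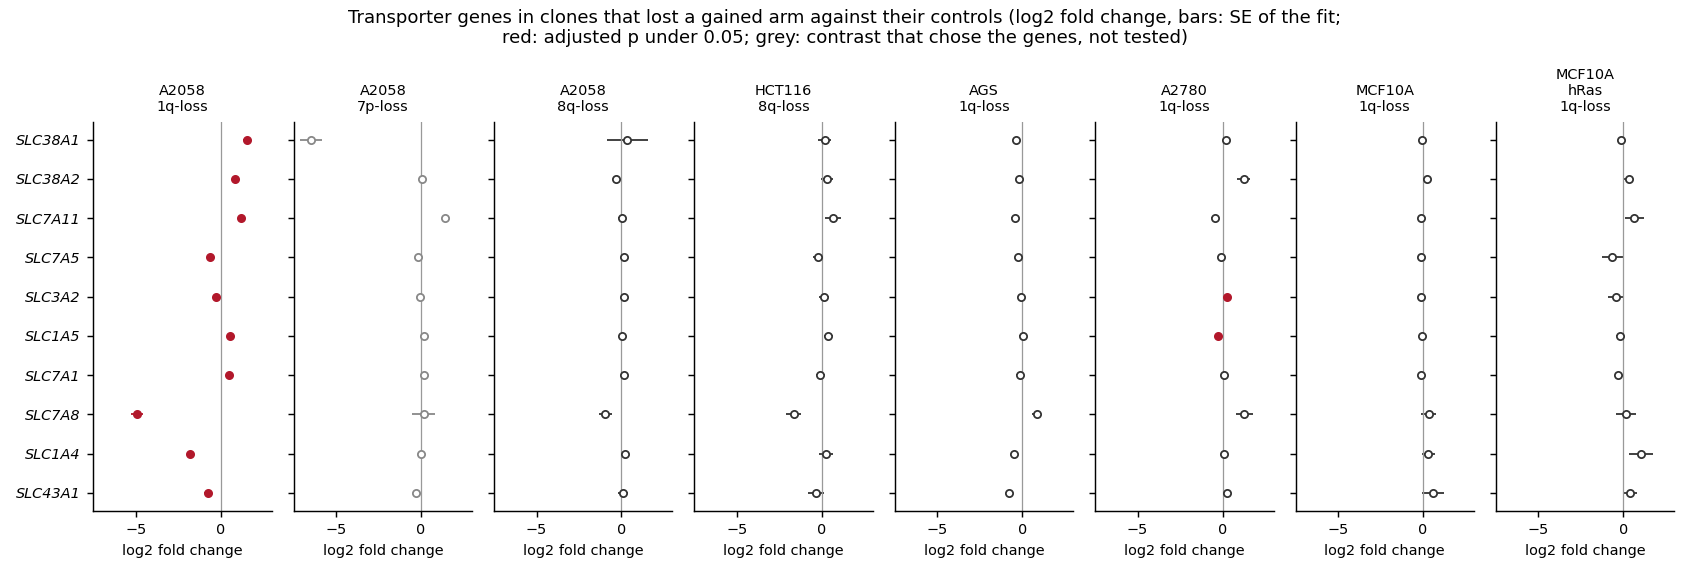
Log2 fold changes of the 10 genes in the 8 loss contrasts, with bars for the SE of the fit; red points have an adjusted p under 0.05 and grey points belong to the contrast that chose the genes. All 10 genes are called in A2058 1q-loss, 2 in A2780 1q-loss and none in the other 5 tested panels.

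In A2058 8q-loss 0 of the 10 genes were called by edgeR and 0 by DESeq2, where 2.03% of all genes were called by edgeR. By edgeR 1 gene (SLC7A8) had an unadjusted p under 0.05, beside 1973 of 15141 genes tested. SLC7A8 was at 4.69 and 9.79 CPM in clone 1 and 2.22 and 5.47 in clone 2 against 6.003 to 13.7 in WT (-0.95, SE 0.39, adjusted p = 0.335). SLC7A1, which lies on 13q, was at 340.5 and 337.5 CPM in clone 1, within WT at 311 to 393. The intervals of the differences ran from -0.10 to 0.19 for SLC1A5 and from -0.42 to 0.43 for SLC7A11 (log2, 1.96 SE either side). The log2 fold changes not yet given were -0.30 for SLC38A2 (SE 0.15), 0.17 for SLC7A5, 0.14 for SLC3A2, 0.15 for SLC7A1, 0.22 for SLC1A4 and 0.08 for SLC43A1 (adjusted p from 0.432 to 0.932 by edgeR). SESN2, which restrains growth signalling when amino acids are low, fell by 0.65 (SE 0.13, adjusted p = 0.0305) as the 1 called gene of 26 in the response list. The melanoma markers summed to 3234 to 3776 CPM in these clones, and MLANA and TYR were below WT.

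HCT116 8q-loss clones had 0 called members by edgeR and 0 by DESeq2, beside 0.140% of all genes. Among the members SLC7A8 alone had an unadjusted p under 0.05, beside 854 of 15659 genes tested. SLC7A8 was at 9.94 and 11.9 CPM in WT, 5.11 and 3.63 in clone 1 and 1.81 and 3.36 in clone 2, with no overlap (-1.66, SE 0.43, adjusted p = 0.341), and 8.29% of all genes lay below WT with no overlap. SLC38A1 varied as much within WT (33.8 and 63.7 CPM) as between groups, with 33.5 and 41.9 in clone 1 and 75.2 and 67.7 in clone 2. The interval of its log2 difference, -0.59 to 0.91, spans both signs. Among the others SLC7A11 had a log2 fold change of 0.63 (SE 0.46), SLC1A5 of 0.39 (SE 0.29), SLC38A2 of 0.31 (SE 0.36), SLC1A4 of 0.25 (SE 0.40) and SLC3A2 of 0.10 (SE 0.30). SLC43A1 was at -0.35 (SE 0.47), SLC7A5 at -0.23 (SE 0.27) and SLC7A1 at -0.09 (SE 0.29), each with an adjusted p of 0.9997 by edgeR. None of the 24 response genes, 18 other transporters and 11 glutamine enzymes was called. Of these, 1, 2 and 0 had an unadjusted p under 0.05, beside 854 of 15659 genes tested. Of the 5 epithelial markers, CDH1 was low in every HCT116 library (1.57 to 11.96 CPM), and the clones lay on opposite sides of WT: CDH1, KRT8 and KRT18 were above WT in clone 1 (marker sum 7510 to 7860 CPM against 4745 to 6901), and 4 markers were below it in clone 2 (2840 to 2953). The part of these differences was not tested.

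In AGS, 1q-loss clones had 0 called members by edgeR, beside 7.55% of all genes. DESeq2 called 2 members (SLC7A8 and SLC43A1), beside 2126 genes in all. By edgeR 4 members had an unadjusted p under 0.05, beside 3860 of 14988 genes tested. SLC38A1 was at 495 CPM in WT, 389 and 451 in TK+, and 342, 364, 302, 318 and 389 in clones 1, 4, 6, 7 and 11. All 5 clones lay below the 3 controls, clone 11 by less than 1 CPM (-0.37, SE 0.12, adjusted p = 0.101). SLC43A1 was at 17.7 to 19.2 CPM in controls and 7.81 to 15.8 in clones (-0.76, SE 0.22, adjusted p = 0.0682), and SLC1A4 at 74.2 to 88.3 and 43.3 to 70.3 (-0.49, SE 0.17, adjusted p = 0.101). These 3 genes lay below every control in all 5 clones, as did 10.7% of all genes. SLC7A8 was at 5.62 CPM in WT, 8.78 and 10.2 in TK+ and 9.65 to 17.4 in clones (0.85, SE 0.26, adjusted p = 0.0784). It lay above every control in clones 1, 4, 6 and 7, while clone 11, at 9.65, overlapped the controls. Without clone 11, which is also the 1 CO clone among them, SLC7A8 and SLC43A1 were called (adjusted p = 0.0332 and 0.0187). In that fit the count over all genes also rose, from 1131 to 1773.

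SLC7A5, SLC38A2 and SLC3A2 had log2 fold changes of -0.26 (SE 0.19), -0.18 (SE 0.20) and -0.07 (SE 0.14) in AGS, none called. Members of AGS also split by clone. SLC1A5 was at 1327 and 1306 CPM in clones 1 and 4 and at 742 to 885 in the other 3 clones, outside the controls at 954 to 995 on either side. SLC7A11 was at 113, 120 and 129 CPM in clones 1, 4 and 11 and at 66.0 and 64.6 in clones 6 and 7, against 105 to 156 in controls. Clones 1 and 4 also showed shifts of untargeted arms, 0.39 and 0.54 (log2) on 11q and -0.42 and -0.40 on 13q, the arm of SLC7A1, which was at 365 and 327 CPM there against 284 to 485 in controls. Of the members on 11q, SLC3A2 was at 702 and 649.2 CPM in clones 1 and 4 against 607 to 746 in controls, and SLC43A1 at 8.89 and 12.7 against 17.7 to 19.2. The part of those shifts was not tested.

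In the AGS contrast, where 7.55% of all genes were called, 1 of 12 other transporters rose and 1 fell: SLC1A3 by 1.04 (SE 0.27, adjusted p = 0.0496) and SLC6A9, which fell by 0.82 (SE 0.16, adjusted p = 0.0194). Of 24 response genes 2 fell: ASNS, which makes asparagine with glutamine as donor, fell by 1.25 (SE 0.24, adjusted p = 0.0196) from 32.8 ± 5.13 to 13.8 ± 4.39 CPM (SD, n = 3 and 5), and CTH fell by 1.17 (SE 0.24, adjusted p = 0.0241). GFPT1, which uses glutamine to make hexosamines, fell by 0.90 (SE 0.18, adjusted p = 0.022). The medians of these lists were 0.14 (transporters) and -0.22 (response), beside 0.01 over all genes. Keratins KRT8, KRT18 and KRT19 were above the controls in all 5 clones (marker sum 6846 to 9286 against 4338 to 5912 CPM), and the part of that difference was not tested.

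A2780 1q-loss clones showed 2 called members of 10 by edgeR, beside 11.8% of all genes. DESeq2 called 3 members, and its count over all genes stayed within 1.5 times the 1780 of edgeR. SLC1A5 fell from 402 to 446 CPM in the 4 controls to 314 and 335 in clone 2, 356 and 346 in clone 5 and 375 and 395 in clone 6 (-0.25, SE 0.07, adjusted p = 0.0358). SLC3A2 rose by 0.25 (SE 0.07, adjusted p = 0.0358), from 126 to 154 CPM to 153 to 178, ranges that overlap. Both calls sat near the threshold: over the alternatives tried the adjusted p ran from 0.0113 to 0.263 for SLC1A5 and from 0.0175 to 0.106 for SLC3A2. Both calls were lost when TK+ replicate 1, TK+ replicate 2, WT replicate 2, clone 2 replicate 1 or clone 5 replicate 1 was left out.

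SLC38A2 differed between clones in A2780. The controls had 176 to 218 CPM, clone 5 had 300 and 303, clone 6 had 271 in both libraries, and clone 2 had 875 and 819. All 6 libraries lay above the controls, as did 6.43% of all genes, and the log2 fold change was 1.24 (SE 0.39, adjusted p = 0.0607, from 0.00385 to 0.232 over the alternatives). Without clone 2 the fold change was 0.51 and was called (adjusted p = 0.00385). SLC38A1 was also highest in clone 2, at 554 and 578 CPM, with 385 to 451 in clones 5 and 6 and 377 to 427 in controls (0.22, SE 0.11, adjusted p = 0.25). SLC7A11 was low in this line, 4.67 to 7.39 CPM in controls and 2.97 to 5.88 in clones (-0.48, SE 0.21, adjusted p = 0.175).

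SLC7A8, also low in A2780, was at 0.452 to 0.661 CPM in controls (10 to 15 counts), 2.89 and 2.08 in clone 2, 1.42 and 0.761 in clone 5 and 0.373 and 0.784 in clone 6. Its log2 fold change was 1.28 (SE 0.51, adjusted p = 0.132), and without clone 6 it was 1.65 and was called (adjusted p = 0.0298). SLC43A1 was at 0.28 (SE 0.15), SLC7A1 at 0.11 (SE 0.08), SLC1A4 at 0.09 (SE 0.08) and SLC7A5 at -0.09 (SE 0.07), none called.

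Around these members in A2780, 4 of 21 other transporters rose and 2 fell, where 11.8% of all genes were called. SLC6A15, a neutral amino acid carrier, rose by 2.13 (SE 0.40, adjusted p = 0.00718), SLC43A2 by 1.00 (SE 0.14, adjusted p = 0.00111) and SLC6A6, the taurine carrier, by 0.66 (SE 0.15, adjusted p = 0.0193). SLC7A3 fell by 2.10 (SE 0.33, adjusted p = 0.00243) and SLC1A3 fell by 1.98 (SE 0.24, adjusted p = 0.000544), from means of 3.08 and 2.81 CPM in controls. Of 25 response genes 4 rose and 1 fell: SESN2 rose by 0.59 (SE 0.12, adjusted p = 0.00959), WARS by 0.45 (SE 0.06, adjusted p = 0.00086) and SARS by 0.42 (SE 0.05, adjusted p = 0.000479), with ASNS as the other, while ATF5 fell by 0.85 (SE 0.13, adjusted p = 0.00215). GLS2, a glutaminase, rose by 0.90 (SE 0.19, adjusted p = 0.0119). SLC6A15 and SLC43A2 were also higher in A2780 TK+ than in WT, by 1.47 (SE 0.14, adjusted p = 1.2e-05) and 0.38 (SE 0.10, adjusted p = 0.028), in cells that keep the gain. In that TK+ comparison 0 of the 10 members were called by edgeR and 0 by DESeq2, beside 11.2% of all genes. By edgeR 3 members had an unadjusted p under 0.05, beside 3223 of 14888 genes tested. The members' log2 fold changes ran from -0.49 for SLC7A11 to 0.22 for SLC7A8. Of the 5 markers chosen for an ovarian carcinoma line, 3 were nearly absent: WT1 was at 0 to 0.0423 CPM, PAX8 at no more than 0.548 and EPCAM at no more than 1.47. The keratins KRT8 and KRT18 differed within the controls and between clones. KRT8 was at 131 to 140 CPM in WT, 2.34 to 3.30 in TK+, 41.5 to 43.8 in clone 2, 4.69 to 6.95 in clone 5 and 3.08 to 5.62 in clone 6. The sum of the 5 markers was 171 to 180 CPM in WT, 5.64 to 8.16 in TK+, 84.1 to 84.8 in clone 2 and 7.09 to 15.1 in clones 5 and 6, and the part of these differences in the transporter values was not tested.

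In MCF10A without hRas 0 of the 10 members were called by edgeR and 0 by DESeq2 in the 1q-loss clones, beside 2.04% of all genes. No member had an unadjusted p under 0.05, beside 1848 of 15666 genes tested. SLC38A1 ran from 493 to 626 CPM over the 8 clone libraries (median 569) around WT at 568 and 597, and the interval of its log2 difference was -0.24 to 0.12. The exchanger pair differed between clones: SLC7A5 was at 4416 and 4168 CPM in clone 1 and 2589 and 2483 in clone 4, against 3452 and 4012 in WT, and SLC3A2 at 850 and 796 in clone 1 and 552 and 524 in clone 4, against 711 and 776. SLC38A2 was at 772 and 988 CPM in clone 4 and at 521 to 669 in the other 3 clones, against 549 and 572. The log2 fold changes of the other 6 members ran from -0.11 for SLC7A11 (SE 0.18) to 0.57 for SLC43A1 (SE 0.65). None of 17 other transporters, 26 response genes and 11 glutamine enzymes was called. Of these, 1, 6 and 0 had an unadjusted p under 0.05, beside 1848 of 15666 genes tested.

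The hRas 1q-loss clones of MCF10A spread further apart, again with 0 of 10 members called by edgeR and 0 by DESeq2, beside 0.214% of all genes. No member had an unadjusted p under 0.05, beside 2262 of 15851 genes tested. SLC7A5 was at 3229 and 3543 CPM in hRas WT, at 4160 and 3957 in clone 1, 647 and 635 in clone 2, 2508 and 2463 in clone 3, and 1456 and 1466 in clone 4. Its partner SLC3A2 followed the same order, at 666 and 675 CPM in hRas WT, 860 and 836 in clone 1, 211 and 208 in clone 2, 539 and 553 in clone 3, and 408 and 380 in clone 4. The 2 libraries of a clone lay close together and the clones lay on both sides of WT, so the groups overlapped (SLC7A5 -0.65, SE 0.61, adjusted p = 0.617; SLC3A2 -0.42, SE 0.47, adjusted p = 0.678).

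Clone 4 of the hRas cells, the 1 clone of that group made by CO, stood apart in other members. SLC7A11 was at 133 CPM in both of its libraries, against 33.6 to 62.8 in the other 3 clones and 41.7 and 46.3 in hRas WT. SLC1A4 was at 18.5 and 18.4 CPM there and at 3.10 to 6.03 in all other hRas libraries, and SLC38A2 at 955 and 906 against 472 to 797 in the others. Clone 4 without hRas, also made by CO, had SLC1A4 at 9.51 and 12.8 CPM, above the 3.88 to 7.78 CPM of all other libraries without hRas. SLC7A11 was at 40.5 and 60.7 CPM in that clone, against 55.8 to 77.6 in the other 3 clones and 59.2 and 75.9 in WT. With 1 such clone in each group, the method and the clone cannot be told apart. SLC38A1 was at 437 to 541 CPM in the 8 libraries (median 513), all below hRas WT at 558 and 574, as were 9.42% of all genes (-0.17, SE 0.10, adjusted p = 0.429). SLC7A1 and SLC1A5 had log2 fold changes of -0.30 (SE 0.14) and -0.20 (SE 0.22), and SLC43A1 and SLC7A8 of 0.40 (SE 0.37) and 0.15 (SE 0.57), none called. None of 17 other transporters, 26 response genes and 11 glutamine enzymes was called. Of these, 6, 4 and 2 had an unadjusted p under 0.05, beside 2262 of 15851 genes tested.

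**Figure D5:**
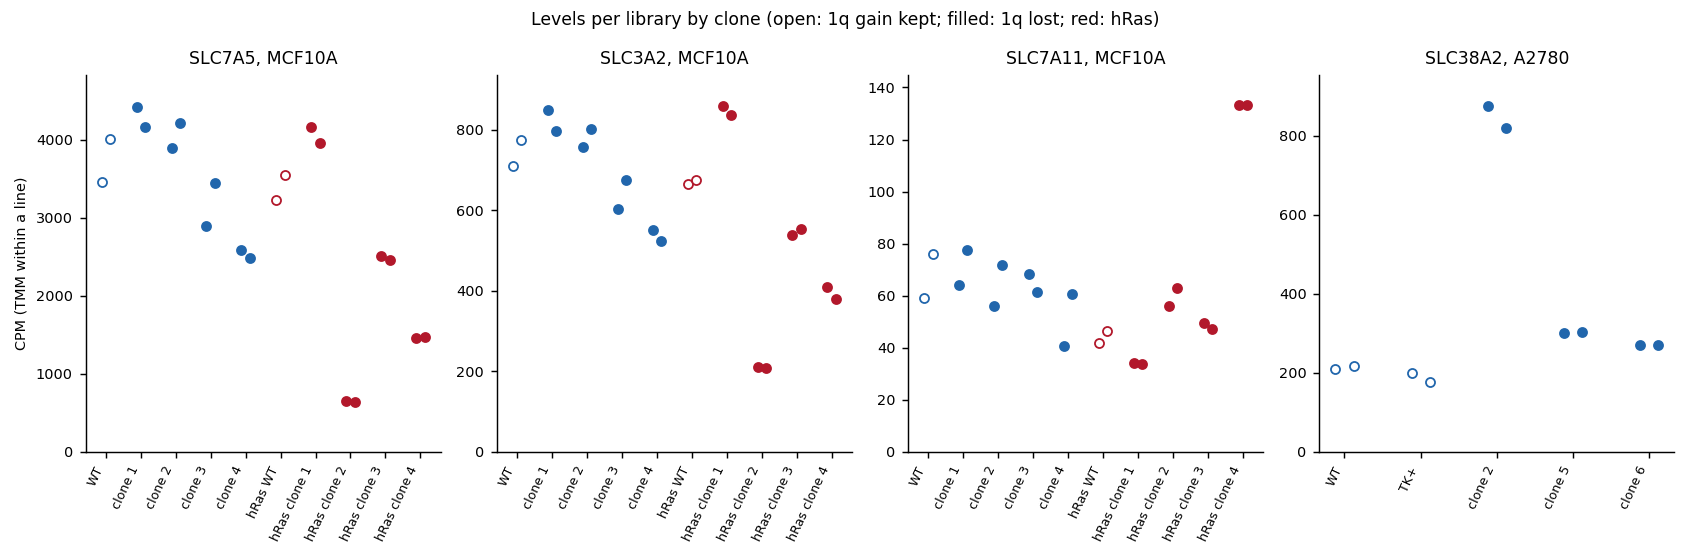
CPM per library for SLC7A5, SLC3A2 and SLC7A11 in MCF10A and SLC38A2 in A2780; open points keep 1q, filled points lost it, and red points are hRas. SLC7A5 runs from 635 to 4160 CPM over the hRas clones, SLC7A11 is at 133 CPM in hRas clone 4, and SLC38A2 is at 819 and 875 CPM in A2780 clone 2.

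Other measures also set these MCF10A clones apart. In hRas clone 1, all 6 basal epithelial markers were above hRas WT (sum 7529 to 7820 against 5270 to 5494 CPM). In hRas clone 3, 3 markers were below and 1 above (sum 5344 to 5558). Clone 4 without hRas had 2 markers below and 2 above WT (sum 8102 to 10693 against 6030 to 7292 CPM). In hRas clone 2, 5 of 6 markers were below hRas WT and KRT14 was above it (sum 700 to 726 CPM) and HRAS was at 386 against 175 CPM. In hRas clone 4, 5 of 6 markers were below (sum 4000 to 4060), and the 19q arm that holds SLC1A5 lay 0.56 higher (log2), as did 19q in clone 4 without hRas (0.44). SLC1A5 itself was at 424 and 403 CPM in hRas clone 4 against 394 and 434 in hRas WT. The part of these differences in the transporter values was not tested.

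Expression of hRASV12 in parental MCF10A, as measured by HRAS at 173 to 177 against 85.9 to 87.9 CPM, came with 1 called member of 10 by edgeR and 1 by DESeq2, beside 1.62% of all genes by edgeR. SLC7A11 was at 59.2 and 75.9 CPM without hRas and 41.7 and 46.3 with it (-0.62, SE 0.12, adjusted p = 0.0191). Leaving out WT replicate 1, WT replicate 2 or hRas WT replicate 1 gave log2 fold changes of -0.79, -0.43 and -0.54. The call ended in each of these fits, but they leave 1 library in a group and cannot decide whether a call holds. The other 9 members ran from -0.47 for SLC1A4 (SE 0.32) to 0.69 for SLC43A1 (SE 0.41). SLC6A9 fell by 1.30 (SE 0.20, adjusted p = 0.00512) and ATF4 itself fell by 0.40 (SE 0.08, adjusted p = 0.0247). Both of these calls also ended without WT replicate 1 and without WT replicate 2, fits that likewise cannot decide them. All calls of this comparison rest on 2 libraries in each group. The labels do not say whether clones of the same number with and without hRas are related, and the fit treats them as unrelated. The difference between the 1q-loss effects with and without hRas, tested as an interaction, was called for 0 of 10 members (each adjusted p = 0.999, 0 with an unadjusted p under 0.05) and for 0 of 16492 genes by edgeR (366 with an unadjusted p under 0.05).

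Over all libraries, total counts ran from 15042068 to 30984036, and by line from 19595543 to 28622197 in A2058 (18 libraries), 21373588 to 30984036 in HCT116 (6), 15042068 to 19414614 in AGS (8), 19358338 to 23965475 in A2780 (10) and 15500424 to 29312644 in MCF10A (20). No 2 libraries of a clone or group agreed within sampling noise, so none was counted as a duplicate. The targeted arms shifted by -0.661 to -0.295 (log2) in the loss clones.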

How the data were processed

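The data are 62 messenger RNA libraries of 5 cell lines. Per the labels' protocols, a Qiagen kit gave the RNA and poly-T beads kept its polyadenylated part, which was fragmented before random-primed copying. The authors deposited 1 table of raw, unnormalised counts per gene for each library; per the submitters' processing notes HISAT2 2.0.5, featureCounts 1.5.0-p3 and build hg38 were used, while the A2780 tables carry GRCh37 coordinates. Strand use is not given in the sources used here.

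Groups follow the labels. In each comparison low genes were dropped (edgeR 4.0.16, filterByExpr, minimum count 10, total 15), TMM factors were set, and edgeR's two-sided quasi-likelihood F-test was run with Benjamini-Hochberg adjustment over all genes tested, on the libraries of that comparison. Calls needed an adjusted p below 0.05. SE is the absolute log2 fold change over the square root of F, and intervals are 1.96 SE either side. CPM values are TMM scaled over all libraries of a line, and correlations used log2 CPM with a prior count of 2. The steps were tested on simulated data with known changes. Arm shifts are medians over an arm's genes of log2 CPM minus the control mean, relative to other autosomal arms. Replicate numbers did not pair libraries of different groups. Promoter windows came from RefSeq (GRCh38.p14), exon positions from GENCODE 29.

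The members and the lists (28 other amino acid transporters, 26 amino acid response genes, 12 glutamine enzymes, cell type markers) were chosen with earlier results of these data known. By rule the 10 members are covered in every comparison, some of those not called only within a range of fold changes. From the lists the text names up to 3 called genes in each direction by size, leaving out the targeted arm. It also names the tested protein-coding neighbours of SLC38A1 within 1 Mb and the 5 genes most correlated with it. A few further called genes, where a list had 5 or fewer, and marker genes were named after their values were seen. Intervals and floors cover counting error only where they rest on counts of 1 library. Alternatives were DESeq2 1.42.0, other filters and scalings, the replicate block, summed clone libraries, other control sets and leaving out each library or clone. R 4.3.3, limma 3.58.1, Python 3.11.15, numpy 2.4.6, pandas 2.3.3 and matplotlib 3.10.9 were used.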

Additional observations from a re-analysis of the deposited data

Results flagged for a closer look

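Within groups of 4 to 8 libraries, 90 pairs of a member and a group were checked for a library far from the rest, where chance gives about 1 in 20, and 3 were found. SLC7A5 was at 1743 CPM in A2058 1q-loss clone 1 replicate 2, while the other 3 libraries of that group ran from 1498 to 1524, so the gap was 0.894 of the group's range. SLC1A5 was at 431 CPM in HCT116 8q-loss clone 1 replicate 1, with the nearest library at 289 (0.835 of the range). SLC7A1 was at 496 CPM in AGS 1q-loss clone 11, with the nearest clone at 365 (0.715 of the range).

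In 2 genes the 1q-loss libraries of different lines lay wholly on opposite sides of their own controls. Over all genes, 10.7% lay wholly below controls in AGS 1q-loss and 9.42% in MCF10A hRas 1q-loss, and 49.6% were called in A2058 1q-loss. The share of all genes on opposite sides in different lines was not computed, so nothing is read from this count. SLC38A1 had a log2 fold change of 1.53 in A2058 1q-loss but of -0.37 in AGS 1q-loss and of -0.17 in MCF10A hRas 1q-loss, where all clone libraries lay below the controls. SLC1A5 had a log2 fold change of 0.56 in A2058 1q-loss and of -0.25 in A2780 1q-loss. These differences between lines were not tested, since the lines were scaled separately.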

How the results depend on the processing

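Of the counts of called members and the values that answer a comparison, 174 alternatives stayed within 1.5 times the reported value and 25 moved further. For single-gene values and counts over all genes, 728 alternatives were the same by 3 rules. A tested gene kept its sign and its side of the threshold, and a count stayed within 1.5 times. In A2058 7p-loss a gene's value moved by less than the SD of log2 CPM over the 7p-loss libraries. There the sign could differ, as for SLC38A2 (-0.0735 to 0.174). Of the other alternatives, 74 moved a count further and 13 brought a gene past the threshold. A gene lost its call in 36, and a tested gene reversed its sign in 6. The cause of these changes was not tested. In A2058 7p-loss, the contrast that chose the genes, the fits are a description and no test is read from them: the count of the 9 members apart from SLC38A1 past the threshold was 1 as fitted, beside 0.908% of all genes, 0 with WT replicates 1 and 2 only and 0 with WT replicates 3 and 4 only. In A2058 8q-loss, leaving out a library or clone gave 0 to 1 called members and an SLC38A1 log2 fold change between -7.83 and 1.331, the extremes coming without clone 2 and without clone 1. In HCT116 8q-loss the SLC38A1 value ran from -0.371 without clone 2 to 0.698 without WT replicate 2, with no call. In AGS, DESeq2 called 2 members and leaving out a library gave 0 to 2, with 2 without clone 11. Over all genes DESeq2 called 2126 and the fit without clone 11 called 1773, against 1131 as fitted. In A2780 1q-loss the count of 2 called members became 1 with no filter (SLC38A2, adjusted p 0.0488, with SLC1A5 and SLC3A2 no longer called), 0 with summed clone libraries and 0 with TK+ libraries only as controls, and leaving out a library gave 0 to 3, with 3 without clone 6 replicate 1. Over all genes of A2780 1q-loss, 725 were called with summed clone libraries and 667 with TK+ controls only, against 1780 as fitted. In A2780 TK+ the fits without a TK+ replicate leave 1 library in that group, so no count of called members is read from them. In MCF10A hRas WT the fits without WT replicate 1, WT replicate 2 or hRas WT replicate 1 ended the SLC7A11 call, but they leave 1 library in a group and cannot decide it. SLC38A1 in A2058 1q-loss had a log2 fold change of 1.53 and an adjusted p of 0.2699 in 1 edgeR fit over all 18 A2058 libraries. Values near the floor of 3 counts limit what can be said of SLC38A1 in the clones that lost it.

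Counts over all genes called moved by over 1.5 times in 10 comparisons. Some of these alternatives leave 1 library in a group and are not read as tests. They ran over all alternatives from 1 to 898 in A2058 7p-loss (reported 139), 16 to 783 in A2058 8q-loss (308), 0 to 133 in HCT116 (22), 97 to 2126 in AGS (1131), 667 to 2555 in A2780 1q-loss (1780), 16 to 546 in MCF10A 1q-loss (319), 0 to 361 in MCF10A hRas 1q-loss (34), 1094 to 3278 in A2780 TK+ (1669), 0 to 711 in MCF10A hRas WT (237) and 0 to 1 in the MCF10A interaction (0).

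Libraries of different groups share only a replicate number, and their deviations from the group means correlated between -0.142 and 0.42 over the comparisons. With the replicate block the called members were 9 in A2058 1q-loss (SLC3A2 no longer called, adjusted p 0.1012 by edgeR), 0 in A2058 7p-loss, 2 in A2780 1q-loss, 1 in MCF10A hRas WT and 0 in each of the other comparisons with numbers. The block moved the count over all genes to 1 in A2058 7p-loss, 39 in A2058 8q-loss, 8 in HCT116, 2 in MCF10A hRas 1q-loss and 711 in MCF10A hRas WT. The AGS libraries carry no shared replicate numbers, so the block was not run for that line.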
